A study of Mus musculus with 4 samples.

Results

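The genes of the cytosolic ribosomal proteins were examined in mouse B cells that had been cultured to become regulatory B cells (Bregs) and were profiled with single-cell RNA-Seq. Genes were taken by their symbols, Rps or Rpl followed by the protein's number or letter, without pseudogene symbols ending in -ps, and a gene had to be detected in at least 1% of the cells that were kept. Of the 31053 genes in the feature table, 84 had such a symbol and 81 were detected, 32 of the small and 49 of the large subunit. The other 3 were Rpl10l, with 0 UMIs in 18534 cells, which allows a share of up to 0.0162% of cells with a UMI, Rpl39l with 18 UMIs in 6 cells, and Rpl3l with 3 UMIs in 3 cells. A UMI (unique molecular identifier) stands for 1 captured mRNA molecule. The 81 genes lie on 19 chromosomes.

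B cells were purified from spleens of wild-type mice without labelling them. Bregs-CpG (2 replicates) were cultured for 3 days with CpG, the B type oligodeoxynucleotide 1668, which activates Toll-like receptor 9. Bregs-TLR (2 replicates) had the same culture and received LPS, PMA, and ionomycin in addition for the last 5 hours, so all 4 samples share the exposure to CpG and none was cultured without it. Whether replicates came from separate mice or cultures is not stated in the sources used here. Cell barcodes end in the numbers 5 to 8, which number the libraries but name no sample, so the libraries could not be matched to the 2 conditions. The conditions were therefore not compared, and each library is given by its own value. Intervals are at 95% and cover counting error only.

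Ribosomes are built in the nucleolus and cytoplasm from ribosomal RNA and 1 copy of nearly every ribosomal protein. The small subunit reads the mRNA, and the large subunit joins amino acids and holds the tunnel through which the new protein leaves. Most ribosomal protein mRNAs begin with a tract of pyrimidines (5′ TOP), through which mTOR signaling adjusts their translation, and activated lymphocytes are known to enlarge their ribosome supply as they grow. A few members have paralogs, such as Rps27 and Rps27l or Rpl22 and Rpl22l1, whose proteins are close in sequence.

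The pattern did not cover the whole ribosome. Fau and Rack1, for example, encode ribosomal proteins under other symbols, and Rpl7l1 is named for its likeness to Rpl7 and is known for a part in the assembly of the large subunit rather than as a standing component. B cell identity was checked with 5 markers (Cd79a, Cd79b, Ms4a1, Cd74, and Pax5), all of which were at 10 or more counts in 1000000 UMIs (CPM) in the kept cells. Their summed level was 13761, 14292, 7358, and 7268 CPM in libraries 5, 6, 7, and 8. The 3 NK cell markers were at 0, 3 of 6 T cell markers were at 0 with a summed level of at most 0.788 CPM, and the 6 myeloid and 3 dendritic cell markers summed to at most 2.98 and 5.44 CPM, with 2 and 1 of them at 0.

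Libraries 5 to 8 kept 4196, 4714, 5621, and 4003 cells with 44842982 to 63638158 UMIs each. Libraries 7 and 8 stood apart from 5 and 6 in other measures. The median mitochondrial share was 7.22% and 7.18% of UMIs in libraries 5 and 6 and 4.61% and 4.65% in libraries 7 and 8. The 6 plasma cell markers, of which 4 reached 10 CPM, summed to 1583, 1745, 356, and 310.0 CPM. Cells with at least 10 UMIs of Jchain, which is among the 6, were 0.50%, 0.78%, 0.93%, and 0.62% of kept cells. Their share did not follow the order of the sum. The 3 erythroid markers, of which 1 (Hbb-bt) reached 10 CPM and 1 was at 0, summed to 4.59, 4.30, 219, and 285 CPM. Cells with at least 1 UMI of Il10 were 7.48% and 7.45% of the kept cells in libraries 5 and 6 and 70.3% and 71.6% in libraries 7 and 8, at medians of 8752, 8785, 10355, and 10077 UMIs per cell. No cell type without Il10 was at hand to measure the background of free RNA. Such values were not used to match libraries to conditions. Pairs of libraries shared 1 to 8 barcodes. The part of these differences in the results was not tested.

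Promoter sequences are shown for the members on which the results turn, from 60 bases before to 10 bases after the RefSeq start (GRCm38.p6), 5′ to 3′. Capitals mark runs of pyrimidines at the start, that is a C followed by at least 4 pyrimidines, beginning within 10 bases of the start. The last run of Rpl39 is cut off by the end of the window. They stand here because TOP transcripts, which the list of translation genes below also holds, begin with a pyrimidine run. The rule used is looser, since a run may also begin before the start. It was met by 34.4% of 27025 genes, so a run alone does not identify a TOP transcript.
Rps27, chr3:90213639-90213708, minus strand: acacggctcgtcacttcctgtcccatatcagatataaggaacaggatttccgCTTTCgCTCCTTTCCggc
Rpl39, chrX:37085213-37085282, minus strand: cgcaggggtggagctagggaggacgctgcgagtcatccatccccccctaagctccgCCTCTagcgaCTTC
Rps2, chr17:24720003-24720072, plus strand: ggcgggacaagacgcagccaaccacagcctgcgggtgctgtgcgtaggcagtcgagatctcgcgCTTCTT
Rpl12, chr2:32961652-32961721, plus strand: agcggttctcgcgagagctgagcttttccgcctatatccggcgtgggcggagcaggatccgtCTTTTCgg
Rpl22l1, chr3:28805448-28805517, plus strand: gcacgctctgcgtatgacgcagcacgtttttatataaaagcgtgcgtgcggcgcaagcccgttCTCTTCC
Rpl7l1, chr17:46782647-46782716, minus strand: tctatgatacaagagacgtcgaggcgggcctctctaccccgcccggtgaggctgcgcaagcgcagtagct

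RefSeq gave a promoter for 61 of the 81 members. Of these 61, 36 (59.0%) had a pyrimidine run at the start, compared with 34.4% of 27025 genes searched in the same way, where a gene with several starts counted if any of them matched. Both members that are higher in libraries 5 and 6 (Rps27 and Rpl39) and members that are lower there (Rps2, Rpl12, and Rpl22l1) carry such a run, whereas the starts of Rpl7l1 (lower there) and Rps28 (higher there) have none in this window. A run was found in 8 of the 13 members with a promoter that departed by 1.5-fold between libraries. The 300 bases from 250 before to 50 after the start were searched on both strands. CCGGAAG, the core that ETS factors such as GABPA bind, was found in 25 members (41.0%) against 9.93% of the 27025 genes. AAGATGGC, the core bound by YY1, was found in 6 (9.84%) against 3.19%, GGGCGG in 39 (63.9%) against 38.2%, and TATAAA in 7 (11.5%) against 15.7%. A match of letters does not show that a factor is bound.

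The first question was how much of the captured mRNA the family makes up. Ribosomal protein genes gave 37.8% of all UMIs in library 5, 36.9% in library 6, 33.8% in library 7, and 35.8% in library 8, and 35.9% over all libraries. The counting interval of library 7, the lowest, was 33.83% to 33.86%, and that of library 8 was 35.79% to 35.82%. Libraries 5 and 6 were both above 7 and 8. The gap between libraries 7 and 8 was wider than that between 5 and 6, and also wider than that between 6 and 8. Library 5 exceeded library 7 by 1.117-fold (interval, 1.116 to 1.118).

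**Figure D1:**
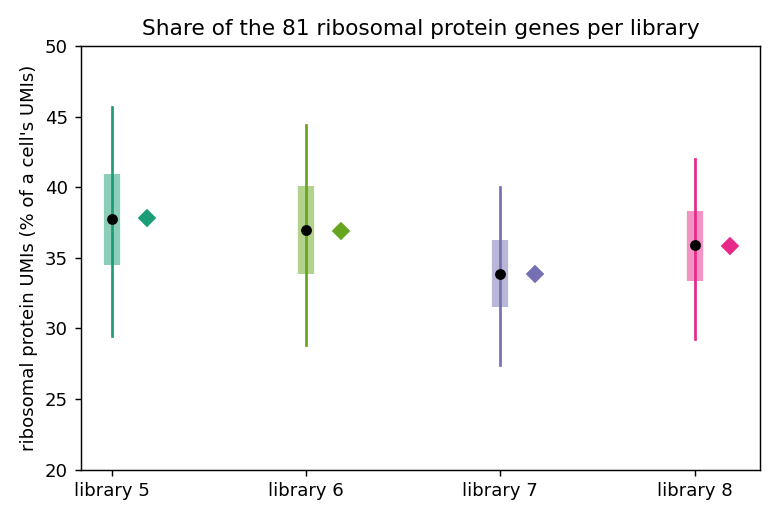
Share of the 81 ribosomal protein genes in the UMIs of single cells (y axis, percent; the axis starts at 20) for each of the 4 libraries (x axis). Black points are medians over cells, thick bars the range from the 25th to the 75th percentile of cells, thin lines that from the 5th to the 95th, and diamonds the share in the pooled UMIs. Medians run from 33.8% in library 7 to 37.7% in library 5, and the ranges overlap widely.

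Single cells varied far more than the libraries did. The median share per cell was 37.7%, 36.9%, 33.8%, and 35.9% in libraries 5 to 8, with an SD over cells of 5.05, 4.91, 4.05, and 4.19 percentage points. In library 5, 1 cell in 20 had less than 29.4% and 1 in 20 more than 45.7%, so the cells of all 4 libraries overlap. In UMIs per cell as deposited, the family was not lower in libraries 7 and 8. These UMIs were not scaled further here. The study's methods state that libraries were normalized when they were combined, but not in which mode. UMIs do not give the number of mRNA molecules in a cell. The median was 3387 and 3329 ribosomal protein UMIs in libraries 5 and 6 and 3544 and 3656 in libraries 7 and 8, while all other genes together gave 5349, 5472, 6773, and 6434 UMIs. The lower share in libraries 7 and 8 thus stood beside more UMIs of other genes per cell.

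The balance of the 2 subunits was nearly the same in all 4 libraries. The ratio of small to large subunit UMIs was 0.849, 0.853, 0.846, and 0.853 in libraries 5 to 8, and the highest exceeded the lowest by 1.01-fold. Within the total, small subunit genes gave between 15.5% and 17.4% and large subunit genes between 18.3% and 20.5% of UMIs.

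No small set of genes carried the share. The 10 members with the most UMIs made up 23.7% of the family, and 76 of the 81 members were detected in at least 99% of cells. The 3 members with the most UMIs were Rps20, a protein of the head of the small subunit, and Rpl13 and Rpl23 of the large subunit. Rps20 was at 9565, 9676, 9560, and 10445 CPM, Rpl13 at 8969, 9296, 9490, and 9970 CPM, and Rpl23 at 9625, 9690, 8755, and 9257 CPM in libraries 5, 6, 7, and 8. UMIs of a 3′ library are counted once per molecule and are not scaled to length.

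To find members that depart from the family, each member's UMIs were divided by the family's UMIs of the same library, and the highest of the 4 libraries was divided by the lowest to give a span. A span of 1.5 or more was reached by 14 of the 81 members (17.3%), 7 of each subunit, compared with 62.8% of the 10474 genes detected in at least 1% of cells and 60.9% of the 709 genes with at least as many UMIs as the least abundant member. The median span was 1.20 over the members and 1.71 over all genes tested. The widest span of a member was 2.64 and the narrowest 1.03. On CPM without division by the family, 19 members (23.5%) reached 1.5, against 58.2% of all genes and 58% of the 709. With TMM or median-of-ratios scaling, 25 of the 81 members reached 1.5, against 5863 and 5887 of the 10474 genes.

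The departures ran between libraries 5 and 6 on one side and libraries 7 and 8 on the other. Between libraries 5 and 6, no member differed by 1.5-fold within the family, and between 7 and 8 only Rpl35 did. Between libraries 5 and 7, 11 members did, between 5 and 8, 13, between 6 and 7, 6, and between 6 and 8, 10. Such pairwise counts are not given here for all genes. Of the 14 members, 5 were higher in both libraries 5 and 6 than in both 7 and 8, 8 were lower, and 1 overlapped, and these 3 counts were the same on CPM, TMM, and median-of-ratios scaling. A separation of these pairs of libraries was common among all genes, of which only 989 of 10474 overlapped on CPM. Over all 81 members, 31 (38.3%) were higher in libraries 5 and 6 within the family, against 34% of all genes and 28.5% of the 709 abundant ones, and 35 (43.2%) were lower, against 54.3% and 62.5%. On CPM, 41 (50.6%) were higher, against 39.6% of all genes and 34.4% of the abundant ones, and 25 (30.9%) were lower, against 51% and 59.2%. TMM, a scaling that centres the bulk of genes, gave 53 members higher and 14 lower. Of the 10474 genes, 4801 were higher and 4709 lower with TMM.

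**Figure D2:**
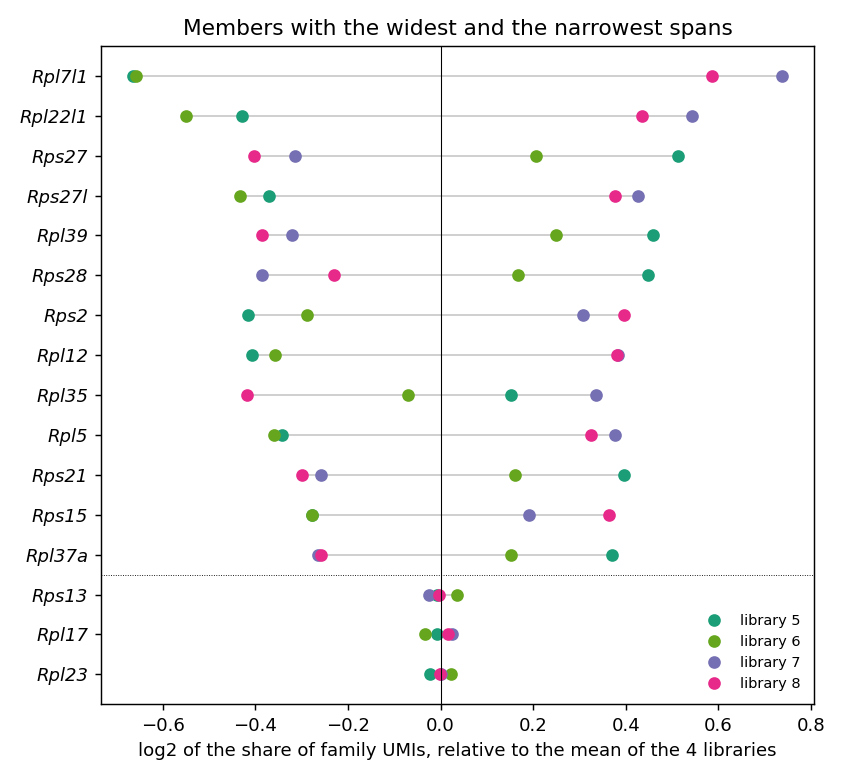
Log2 of each member's share of the family's UMIs relative to the mean over the 4 libraries (x axis), for 13 members with a span of 1.5 or more (above the dotted line, ordered by span) and the 3 members with the smallest spans (below it). Each point is 1 library. Libraries 5 and 6 lie on one side and 7 and 8 on the other for 12 of the 13, and Rpl35 is the exception. Over all 10474 genes tested, 1235 were such exceptions when divided by the family total.

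Among small subunit genes, Rps27, Rps28, and Rps21 were higher in libraries 5 and 6. Rps27, which encodes a small zinc-binding protein, was at 5786, 4563, 2917, and 2903 CPM in libraries 5, 6, 7, and 8, with a span of 1.89 within the family (1.88 to 1.90). Rps28, whose product lies near the mRNA exit of the small subunit, was at 3295, 2647, 1655, and 1949 CPM, with a span of 1.78. Libraries 5 and 6 lay above 7 and 8 for both, and library 5 was the highest. Rps21, another short protein of the small subunit, was at 4399, 3648, 2502, and 2573 CPM, with a span of 1.62.

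Rps2, Rps15, and Rps27l were lower in libraries 5 and 6. Rps2, at the entry of the mRNA channel, was at 3968, 4224, 5861, and 6596 CPM, with a span of 1.76 within the family (1.75 to 1.77). Rps15, a protein of the head whose tail reaches toward the decoding site, was at 2238, 2184, 2769, and 3304 CPM, with a span of 1.56. Library 8 was the highest for both. Rps27l, the paralog of Rps27, was at 309.6, 289, 481, and 492 CPM, with a span of 1.81.

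Among large subunit genes, Rpl39 and Rpl37a were higher in libraries 5 and 6. Rpl39, which lines the exit tunnel of the new protein, was at 6831, 5762, 3559, and 3603 CPM, with a span of 1.80 within the family (1.78 to 1.81). Rpl37a, a zinc-binding protein, was at 6148, 5161, 3545, and 3768 CPM, with a span of 1.55. In both genes libraries 7 and 8 were close to each other and library 5 was above library 6.

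Rpl7l1, Rpl22l1, Rpl12, and Rpl5 were lower in libraries 5 and 6. Rpl7l1 had the widest span of the family, 2.64 (2.55 to 2.73), at 94.98, 93.03, 224, and 214 CPM, and it was also the member with the fewest UMIs (33113), detected in 72.7% of cells. Rpl22l1 was at 1098, 985, 1929.8, and 1894 CPM, with a span of 2.13 (2.11 to 2.16). The gap between the pairs of libraries was wide in both genes compared with the gap within a pair. Rpl12, at the base of the stalk that recruits translation factors, was at 3425, 3457, 5304, and 5598 CPM, with a span of 1.73. Rpl5, which carries 5S ribosomal RNA into the large subunit together with Rpl11, was at 1630.2, 1573, 2403, and 2453 CPM, with a span of 1.67.

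Rpl35, near the tunnel exit, did not follow this order. It was at 2143, 1791, 2177, and 1367 CPM in libraries 5, 6, 7, and 8, with a span of 1.68, so that libraries 5 and 7 were high and library 8 was low. Close to the limit of 1.5 were Rpl37a (1.55) on one side and Rps6 (1.495), the substrate of S6 kinase, on the other, and Rps29 (1.47) lay further below it. Rps6 was at 2209.6, 2067, 2836, and 2828 CPM and was lower in libraries 5 and 6.

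The most even members were Rpl23, Rpl17, and Rps13, with spans of 1.03, 1.04, and 1.04. Rpl17, at the rim of the exit tunnel, was at 4674, 4479, 4281, and 4503 CPM, and Rps13 of the small subunit at 5511, 5546, 4880.2, and 5239.6 CPM. On CPM, Rpl23 and Rps13 were higher in libraries 5 and 6, as the family was, and Rpl17 overlapped.

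Fau and Rack1, ribosomal proteins outside the pattern, had opposite orders. Fau, whose product is a fusion of a ubiquitin-like protein and Rps30, was at 8689, 8453, 5151, and 6047 CPM, highest in libraries 5 and 6. Rack1, a scaffold protein on the small subunit, was at 2604, 2496, 3130, and 3256 CPM, lowest in libraries 5 and 6.

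The paralog pairs were then compared as the share of the paralog in the UMIs of both genes. The coding sequences of Rps27 and Rps27l are shown because these 2 genes had opposite orders across the libraries. Both have 252 bases without the stop codon, 192 of them identical (76.2%), and capitals mark the 60 positions at which they differ. They were taken from GENCODE vM21 transcripts on GRCm38, with gene coordinates, 5′ to 3′.
Rps27, gene at chr3:90212522-90213651, minus strand: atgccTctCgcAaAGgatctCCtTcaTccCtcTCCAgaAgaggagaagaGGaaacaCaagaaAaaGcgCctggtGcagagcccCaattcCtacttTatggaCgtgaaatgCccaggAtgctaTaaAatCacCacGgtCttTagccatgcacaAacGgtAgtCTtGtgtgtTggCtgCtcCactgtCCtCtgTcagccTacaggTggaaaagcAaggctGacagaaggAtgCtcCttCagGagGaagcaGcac
Rps27l, gene at chr9:66946086-66949516, plus strand: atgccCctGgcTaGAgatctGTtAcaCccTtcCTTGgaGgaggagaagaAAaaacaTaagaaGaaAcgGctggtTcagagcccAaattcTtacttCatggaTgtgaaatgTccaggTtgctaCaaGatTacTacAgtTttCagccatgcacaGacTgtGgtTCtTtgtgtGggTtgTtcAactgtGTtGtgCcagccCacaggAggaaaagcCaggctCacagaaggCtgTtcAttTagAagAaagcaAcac

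Rps27l made up 5.08%, 5.96%, 14.2%, and 14.5% of the UMIs of its pair in libraries 5, 6, 7, and 8. The intervals of libraries 5 and 6 ended at 5.16% and 6.05%, and that of library 7 began at 14.0%. Rpl22l1 made up 29.2%, 27.6%, 49.3%, and 47.1% of its pair, in which Rpl22 itself was at 2666, 2589, 1984, and 2129 CPM and therefore ran opposite to its paralog. The coding sequences of Rpl22 and Rpl22l1 were identical at 68.2% of 387 aligned positions. In both pairs libraries 7 and 8 held more of the paralog.

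Rpl7l1 made up 2.07%, 2.03%, 4.44%, and 4.20% of its pair with Rpl7, which encodes a large subunit protein and was at 4488, 4485, 4828, and 4876 CPM. These 2 coding sequences were identical at 54.9% of 831 aligned positions. Rpl36al made up 16.2%, 17.0%, 16.2%, and 19.5% of its pair with Rpl36a, and library 8 was the highest. The coding sequences of this pair differed at 39 of 318 positions. Rpl36a was at 2192, 1947, 1598, and 1655 CPM. How reads that fit both genes of a pair were assigned was not tested.

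The paralogs known for expression in testis or muscle had few UMIs or none. Rpl39l gave 1, 8, 6, and 3 UMIs in libraries 5 to 8 beside 306333, 297533, 226513, and 164571 UMIs of Rpl39. Rpl3l gave 0, 1, 0, and 2 UMIs beside Rpl3, which was at 3149, 3332, 3732, and 3822 CPM. Rpl10l gave 0 UMIs beside Rpl10 at 2046, 2054, 1932, and 1717 CPM. Rps4x, the X-linked gene of a small subunit protein, was at 5963, 6081, 5341, and 5306 CPM and had a span of 1.11.

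**Figure D3:**
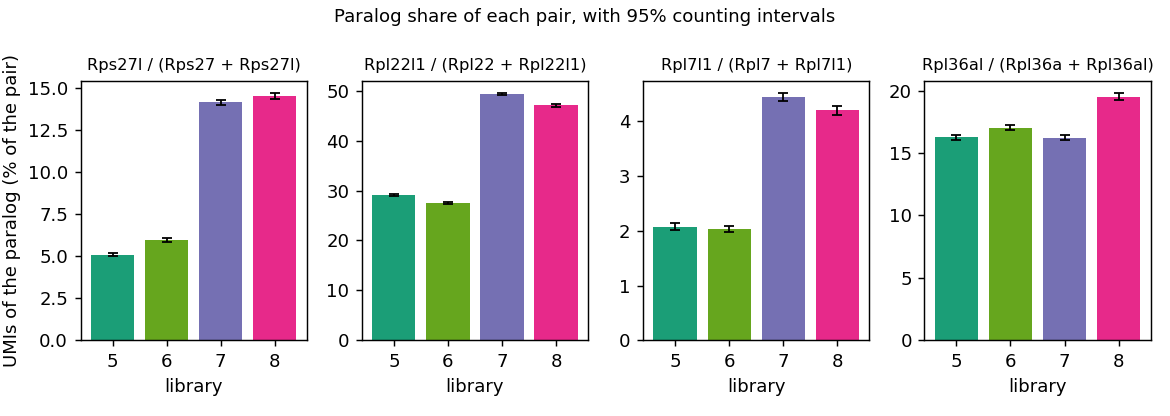
UMIs of the paralog as a percentage of the UMIs of both genes of the pair (y axes, each starting at 0 with its own scale) in libraries 5 to 8 (x axes). Error bars are Clopper-Pearson 95% intervals, which cover counting error only. The share is 14.2% and 14.5% for Rps27l in libraries 7 and 8 compared with 5.08% and 5.96% in libraries 5 and 6.

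Most members with short coding sequences stood higher in libraries 5 and 6. The 10 members with a coding sequence of at most 300 bases, among them Rps27, Rps28, Rps21, Rpl39, and Rpl37a, made up 12.6%, 10.9%, 8.37%, and 8.55% of the family's UMIs in libraries 5, 6, 7, and 8, and 9 of the 10 were higher in libraries 5 and 6. Rps27l was the exception, although its coding sequence has 252 bases, as many as that of Rps27. The 23 members with more than 600 bases made up 25.2%, 26.3%, 30.2%, and 29.3%. Of these, 16 were lower in libraries 5 and 6 and 3 were higher. Among the 709 abundant genes, 62.5% were lower when divided by the family total. Across the 81 members, the Spearman correlation of coding length with the log2 share relative to the mean of the libraries was -0.59, -0.37, 0.59, and 0.37 in libraries 5 to 8, where the 4 values share 1 mean and are not independent.

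Among other genes the relation to coding length was weaker. Across 618 other genes with at least as many UMIs as the least abundant member, the same correlation was -0.20, -0.15, 0.20, and 0.15. The contrast was smaller for transcript length. There the correlations were -0.43, -0.29, 0.49, and 0.26 over the members and -0.23, -0.18, 0.22, and 0.19 over the 618 other genes. The 67 of these genes with at most 300 bases gave 4.30%, 4.17%, 3.01%, and 3.07% of all UMIs, with 30 higher and 32 lower in libraries 5 and 6. Of the 372 with more than 600 bases, 251 were lower and 109 higher on CPM, so most long genes outside the family were also lower there. Without the 10 short members, the family's share in library 5 exceeded that in library 7 by 1.06-fold instead of 1.12-fold. The shares were then 33.0%, 32.9%, 31.0%, and 32.7% in libraries 5 to 8. Library 8 thus lay only slightly below libraries 5 and 6, and library 7 alone stood clearly lower.

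**Figure D4:**
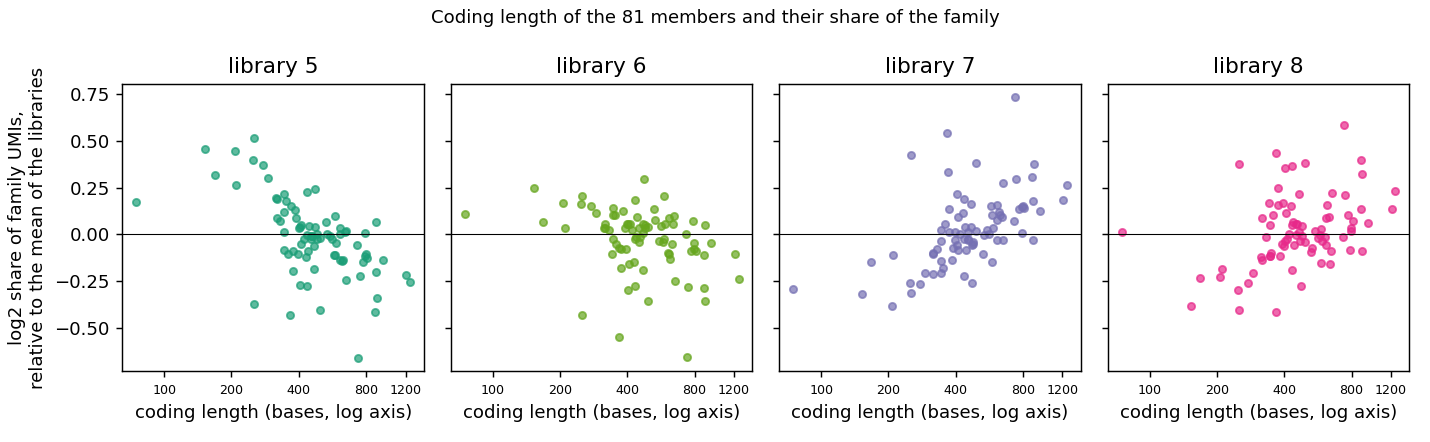
Coding length in bases (x axis, logarithmic) and log2 of the share of family UMIs relative to the mean over the libraries (y axis) for the 81 members, 1 panel per library. Of the 10 members with at most 300 bases, 9 lie higher in libraries 5 and 6 than in 7 and 8, with Rps27l as the exception, and the Spearman correlations run from -0.59 in library 5 to 0.59 in library 7.

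Other genes of translation were counted for comparison. All 11 genes of a list for translation initiation were lower in libraries 5 and 6 than in 7 and 8, under every scaling used. All 11 reached 1.5-fold on CPM. Of all genes, 51% were lower on CPM and 58.2% reached 1.5-fold. The median of highest over lowest library was 3.11 over the 11 genes, against 1.63 over all genes and 1.20 over the members. Eif4a1, the helicase that unwinds mRNA leaders, was at 342, 330.1, 1573, and 1444 CPM, and Eif1ax, which helps in the choice of the start codon, at 105, 104, 837, and 844 CPM. Eif6, which keeps unfinished large subunits from joining, was at 104.5, 104.9, 258, and 247 CPM. Initiation genes outside this list did not all follow it. Of those kept in the list below, Eif3e, Eif3f, Eif3h, and Eif3k were higher in libraries 5 and 6, whereas Eif4a2 and Eif4b were lower.

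A list of 20 further TOP and translation genes, of which 18 were tested, was mixed. On CPM, 11 were lower and 6 higher in libraries 5 and 6 (11 and 3 when divided by the family total), and 8 reached 1.5-fold. Over all genes, 51% were lower and 39.6% higher on CPM, and 58.2% reached 1.5-fold. Npm1, a nucleolar chaperone of ribosome assembly, was at 1284, 1304, 4624, and 4406 CPM. The elongation factor gene Eef1a1, a classic TOP transcript, was at 6109, 6301, 6323, and 5923 CPM, and Eif3f, a subunit of initiation factor 3, at 730.4, 768, 489, and 496 CPM. Of 77 tested genes of the mitochondrial ribosome, which is made of other proteins, 63 were lower and 11 higher in libraries 5 and 6 on CPM, and 45 reached 1.5-fold, a share close to that of all genes (58.2%). Their summed level was 5439, 5510.3, 7909.99, and 7821 CPM, whereas the cytosolic members summed to a higher level in libraries 5 and 6.

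Cells of different states were compared within each library. In cells with at least 10 UMIs of 16 mitosis genes, the family made up 35.2%, 34.4%, 33.1%, and 35.2% of UMIs in libraries 5, 6, 7, and 8, compared with 38.2%, 37.3%, 33.9%, and 35.9% in the other cells. The ratio was 0.921, 0.923, 0.976, and 0.981, so the share was lower in the cells rich in mitosis genes in all 4 libraries, by more in libraries 5 and 6. These cells also held more UMIs, with medians of 16245 to 18116 against 8501 to 10133 in the others. When the cells of a library were ranked by UMIs and cut into 4 equal groups, the share did not follow a steady order. In library 5 it was 35.6%, 38.3%, 39.1%, and 37.6% from the group with the fewest to that with the most UMIs, and in library 7 it was 33.0%, 34.4%, 34.1%, and 33.7%.

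Cells with at least 10 UMIs of Jchain, which encodes the joining chain of secreted antibody, had the lowest share. It was 26.2%, 24.2%, 21.3%, and 27.1% in 21, 37, 52, and 25 cells of libraries 5 to 8, compared with 37.9%, 37.0%, 34.0%, and 35.9% in the other cells. Median UMIs per cell were 10761 to 12918 in the cells with Jchain and 8735 to 10351 in the others. The 25th and 75th percentiles of the Jchain cells in library 5 were 11.3% and 32.4%, so single cells of this kind varied widely. In cells with at least 1 UMI of Il10, the cytokine by which Bregs are often known, the share was 36.5%, 35.6%, 33.6%, and 35.6%, compared with 38.0%, 37.1%, 34.5%, and 36.4% in cells without one, and cells with Il10 had more UMIs in all 4 libraries.

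**Figure D5:**
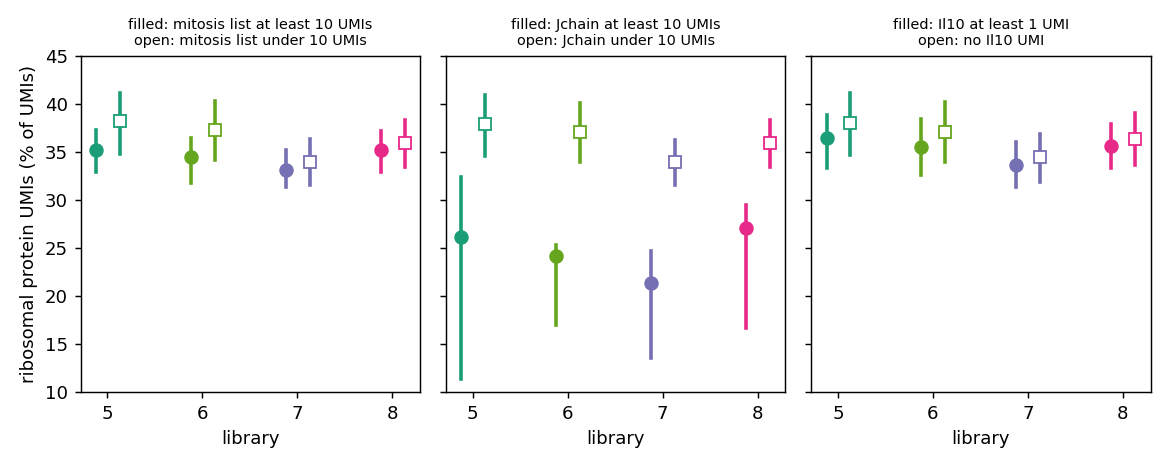
Share of the ribosomal protein genes in pooled UMIs (y axis, percent; the axis starts at 10) by library (x axes), for cells split by mitosis genes, by Jchain, and by Il10. Filled circles are the cells with the marker, open squares the other cells, and vertical lines the range from the 25th to the 75th percentile of single cells. Cells with Jchain lie at 21.3% to 27.1%, below the other cells of every library.

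The shares of Rpl22l1 and Rps27l in their pairs kept their order of libraries within both kinds of cells. Rpl22l1 made up 42.6%, 41.1%, 55.0%, and 52.8% of its pair with Rpl22 in the cells rich in mitosis genes and 26.8%, 24.9%, 48.7%, and 46.3% in the others. Rpl22l1 was thus higher in the former in every library, and libraries 7 and 8 were above 5 and 6 in both kinds of cells. Its share also differed with UMIs per cell. From the group of cells with the fewest UMIs to that with the most, it went from 20.5% to 34.2% in library 5 and from 46.9% to 51.1% in library 7. Rps27l made up 7.88%, 9.20%, 15.1%, and 15.5% of its pair with Rps27 in the cells rich in mitosis genes and 4.73%, 5.53%, 14.1%, and 14.4% in the others.

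Further members differed by state within a library. Rps2 gave 13.2, 14.95, 17.4, and 18.8 of 1000 family UMIs in the cells rich in mitosis genes and 10.1, 10.9, 17.3, and 18.4 in the others, a gap seen mainly in libraries 5 and 6. Rps27 gave 12.8, 10.01, 7.58, and 7.25 of 1000 family UMIs in the cells rich in mitosis genes and 15.7, 12.8, 8.73, and 8.22 in the others, and was lower in the former in all 4 libraries. Rpl7l1 gave 0.271, 0.261, 0.538, and 0.487 of 1000 in the cells rich in mitosis genes and 0.248, 0.251, 0.676, and 0.611 in the others. The intervals of the 2 kinds of cells, which cover counting error only, overlapped in libraries 5 and 6 and lay apart in libraries 7 and 8. Rpl7l1 also differed with UMIs per cell. From the group of cells with the fewest UMIs to that with the most, it went from 0.674 to 0.632 in library 7. In library 8 it went from 0.595 to 0.572. The part of UMIs per cell in the gap was not tested. Rpl36al made up 29.1%, 27.7%, 26.5%, and 26.6% of its pair in the cells with Jchain, compared with 16.2%, 16.9%, 16.1%, and 19.5% in the others.

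Barcodes that were left out had other shares. Those with fewer than 1000 genes, 102 to 162 per library, had 9.45%, 11.3%, 13.3%, and 10.3% of their UMIs in the family, at medians of 669.5 to 975 UMIs. Those with at least 10% mitochondrial UMIs and at least 1000 genes had 35.3%, 33.9%, 29.0%, and 27.6%, below the kept cells of the same library in all 4.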

How the data were processed

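Libraries were made by the authors with the 10x Genomics Chromium 3′ v3 chemistry, and reads were demultiplexed with bcl2fastq. Reads were then counted on mm10 (Ensembl 93) with Cell Ranger (version 3.1.0), per the submitters' processing notes and the study's methods. The authors combined libraries with the aggr step, which by the study's methods also normalized them. Its mode is not given in the sources used here. The deposited values are UMI counts per gene and cell. There are 35989 matrix columns but 19920 barcodes. The last 19920 columns were read as these barcodes in order, and 16069 earlier columns were left unused. Mean expression in windows of 400 columns shifted most at the first column of library 7 (percentile 100 of columns) and at that of library 8 (percentile 99.0), whereas that of library 6 was at percentile 79.6.

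Cells with at least 1000 genes and under 10% mitochondrial UMIs were kept (18534). The gene limit was missed by 559 barcodes and the mitochondrial limit by 1110. Doublets were not called and none was removed. UMIs were summed per library and divided by all UMIs (CPM) or by the family's UMIs. Intervals are Clopper-Pearson for shares and exact conditional for ratios (SciPy, version 1.17.1), at 95%. For zero counts, 3 counts were used as the limit. TMM factors were computed with edgeR (version 4.0.16) for scaling only, and spans were tested on simulated data. No test between Bregs-CpG and Bregs-TLR was made. Genes named are the members with a span of 1.5 or more, the 3 most abundant and the 3 most even members, the paralog pairs, and genes of the translation lists. Rps6 and Rps29 were named as members just outside the limit. Some genes that these rules or lists cover are not reported here. The members and lists were chosen with earlier results of these data known. Alternatives changed the total, scaling, cell filters, members, and fold, and left out each library.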

Additional observations from a re-analysis of the deposited data

Results flagged for a closer look

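Signal was found in the ribosomal protein symbols that the family leaves out. Symbols ending in -ps, the ending of pseudogene symbols, had 26788 UMIs in the kept cells, from 8 of 9 such symbols, or 0.0363% of the family's UMIs. In libraries 5, 6, 7, and 8 they summed to 119.9, 143, 141, and 111 CPM, with libraries 5 and 6 neither both above nor both below 7 and 8. Rps27rt, a retrogene copy of Rps27 that the pattern also leaves out, was at 98.5, 90.3, 49.7, and 68.4 CPM, highest in the same libraries as Rps27. Whether these UMIs come from reads of the parent genes was not tested.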

How the results depend on the processing

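No paired analysis was possible because the barcodes name no sample, although the labels number replicates 1 and 2 in both conditions. The share of the family was highest in library 5 and lowest in library 7 under every alternative that kept both. The ratio of 1.117 became 1.15 without mitochondrial UMIs, 1.16 without mitochondrial and immunoglobulin UMIs, 1.26 with TMM, 1.254 with median-of-ratios scaling, 1.114 without a cell filter, 1.116 with the mitochondrial limit at 20%, 1.121 without cells above 2 times the median UMIs, 1.124 without cells rich in mitosis genes or Jchain, 1.115 as medians over cells, 1.114 with each cell thinned to 3000 UMIs (51 shallower cells left out), 1.123 with -ps symbols, Fau, and Rack1 added, and 1.06 without the 10 short members, the last 2 chosen after seeing the data. Leaving out 1 library each gave 1.06 to 1.12. The 14 members with a span of 1.5 became 31 at the lower of the other fold limits tried and 2 at 2-fold. Shares of all genes at these other limits are not given here, so these counts cannot be weighed against them. Without short members, 9 of 71 reached 1.5, and 11 to 14 members did when 1 library was left out. With TMM or median-of-ratios scaling, both added after seeing the data, 25 of the 81 members reached 1.5, 11 of the 14 among them. Of the 10474 genes tested, 5863 and 5887 did. The median of all genes lay lower in library 5 than in library 7 by a log2 CPM difference of -0.17, while that of the members was 0.13. The small to large ratio spanned 1.007-fold without the 14 members. With cuts of 5 and 20 mitosis UMIs, the ratio of shares was 0.930 and 0.914 in library 5 and 0.928 and 0.916 in library 6, and with the cut of 5 it was 0.971 and 0.973 in libraries 7 and 8. The cause of these changes was not tested.

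Counting error is small at this depth, and variation between mice or cultures could not be measured. A wrong match of columns to barcodes would move cells between libraries.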
